A study of Rattus rattus with 10 samples.

Results

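Cells display protein fragments to T cells on molecules of the major histocompatibility complex (MHC), which in the rat is called RT1. MHC class II molecules carry fragments of engulfed protein to helper T cells and are made mainly by macrophages, dendritic cells and B cells, under the control of the coactivator Ciita. MHC class I molecules carry fragments of the cell's own protein to cytotoxic T cells, and interferon gamma raises the genes of both routes. The testis is known as an immune-privileged organ: macrophages lie between the tubules, and germ cells carry little class I on their surface.

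The 9 genes described here are Cd74, RT1-Ba, RT1-Bb, RT1-Da, RT1-Db1 and Ciita of the class II route, and B2m, Tap1 and Tap2 of the class I route. The genes were chosen with earlier results of these data known. Their probe sets were taken by symbol, as every one whose platform annotation names 1 of these genes alone. That gave 17 of 31042 probe sets and 9 of 14217 named genes. Of the genes, 6 had more than 1 probe set, and a gene is given by its brightest one, with the others beside it. Each probe set has its own affinity, so levels are compared between arrays and never between genes.

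RNA of whole testis was measured on 10 Affymetrix rat expression arrays. The animals were Long-Evans males aged 60 days, an outbred stock with no engineered allele named in the labels. Each had 1 intraperitoneal injection. The injection held gamendazole at 6 mg/kg, lonidamine at 25 mg/kg or buffered DMSO as vehicle, so all 3 groups share the solvent. Testes were taken at 4, 12 and 24 h, with 1 array for each treatment and hour, and 1 further vehicle array stood for 0 h. Gamendazole and lonidamine are related indazole carboxylic acids that were studied as male contraceptives because they loosen developing germ cells from Sertoli cells. How many animals an array stands for, and whether their RNA was mixed, is not given in the labels. No treatment was repeated at an hour, so every spread below is between hours or between vehicle arrays.

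All arrays had been scaled to 1 trimmed mean of 500.2 units of signal. Their medians lay between 110.2 and 124.5 units. The 3'-to-5' signal ratio of beta-actin, a check of RNA integrity, lay between 1.85 and 2.0, and that of GAPDH between 0.723 and 0.853 with the highest value on gamendazole 24 h. Hybridisation runs were inferred from the instrument records and may not be the laboratory's batches. As inferred, the 24 h arrays shared 1 run, and gamendazole 4 h was the only treated array in another run than its vehicle array. The tissue label was checked with germ cell markers, whose summed signal was 290132 to 303893 units on the vehicle arrays. In RNA of a whole organ, fewer cells of a type and less RNA per cell cannot be told apart, and the same holds for more.

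After either drug, Cd74 and RT1-Da of the class II route stood at least 2-fold above the same-hour vehicle array at 24 h. This compares 1 array a side with no test. Of all genes, 4.21% did so after lonidamine and 4.9% after gamendazole. Tap1 of the class I route did so too, but was bright enough to count on treated arrays alone. Over 4, 12 and 24 h together, no member passed the test described below for either drug. Among the genes bright enough to test, Tap1 alone reached 2-fold at 12 h and none did at 4 h. RT1-Bb exceeded the highest vehicle array on 0 of 6 treated arrays. The values on each array follow, with the class II genes first, and the plot of the 9 genes by array and hour shows them together.

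**Figure D1:**
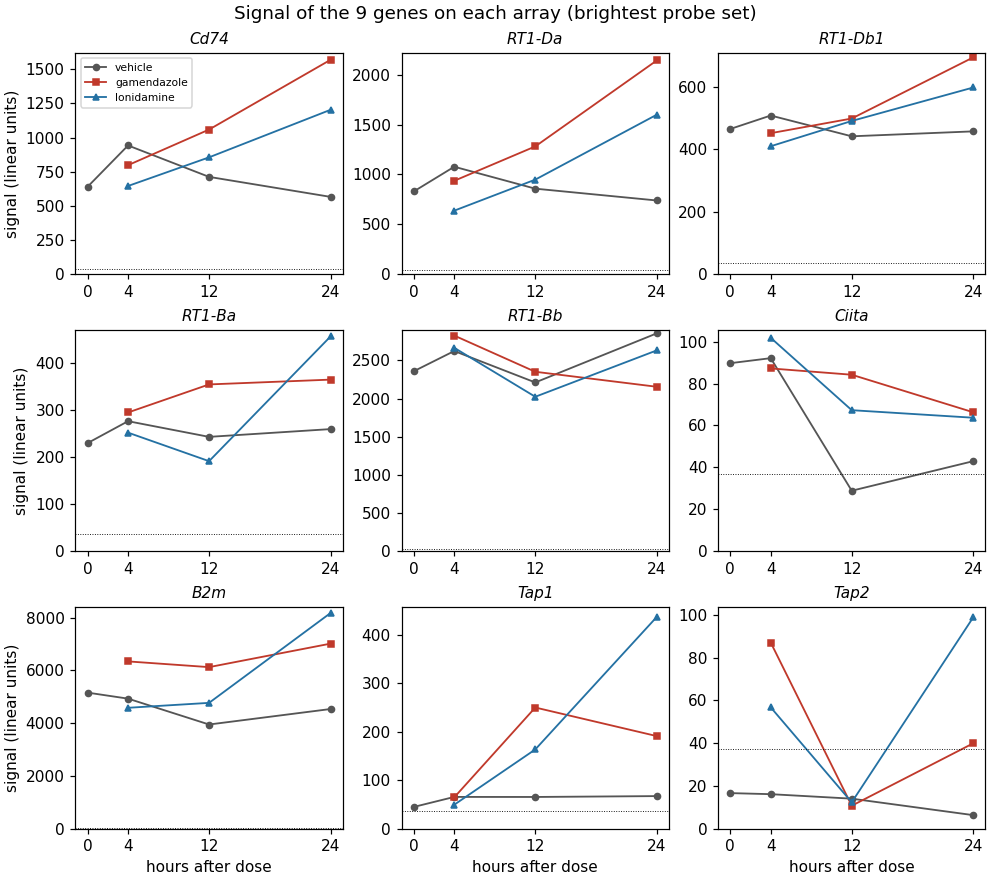
Signal (linear units) of the brightest probe set of each of the 9 genes against hours after the dose, 1 point for each array, joined by treatment; the dotted line marks the floor of 37.1 units. At 24 h Cd74 read 1204.0 after lonidamine and 1570.3 after gamendazole against 565.9 after vehicle, while RT1-Bb on the treated arrays stayed at or below the highest vehicle array of 2854.3.

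Cd74 is the invariant chain, which guides newly made class II molecules to the endosome and blocks their groove until peptide is loaded. The vehicle arrays read 639.5, 942.6, 712.4 and 565.9 units at 0, 4, 12 and 24 h, a mean of 715 ± 163 (SD, n = 4 arrays). After lonidamine the signal was 645.7, 855.6 and 1204.0 at 4, 12 and 24 h. After gamendazole it was 798.2, 1059.1 and 1570.3. Both 4 h values lay among the vehicle arrays, and so did lonidamine 12 h. Gamendazole 12 h and both 24 h arrays lay above every vehicle array. Against vehicle of the same hour the fold was 2.13 for lonidamine and 2.77 for gamendazole at 24 h.

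RT1-Da encodes the alpha chain of RT1-D, the counterpart of human HLA-DR. On the vehicle arrays it read 829.4, 1077.5, 857.4 and 738.9 units, a mean of 876 ± 144 (SD, n = 4 arrays). The lonidamine arrays gave 636.8, 948.2 and 1599.8, and the gamendazole arrays 936.4, 1281.4 and 2144.0. Lonidamine 4 h was below every vehicle array, and the same 3 treated arrays as for Cd74 were above. The 24 h folds were 2.17 and 2.90.

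RT1-Db1 encodes the beta chain that pairs with RT1-Da. Its vehicle arrays were close together at 464.4, 507.5, 441.0 and 456.8 units. Lonidamine gave 409.2, 490.1 and 597.2, and gamendazole 451.0, 497.9 and 693.6. Only the 24 h arrays of each drug exceeded all vehicle arrays, by 1.31-fold and 1.52-fold over vehicle 24 h. A further probe set of this gene was dim, at 1.3 to 83.8 units, and carried no usable level.

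RT1-Ba and RT1-Bb encode the alpha and beta chains of RT1-B, the counterpart of human HLA-DQ. The brightest probe set of RT1-Ba read 229.9, 276.5, 243.2 and 259.7 units after vehicle. It read 252.2, 191.6 and 456.6 after lonidamine and 295.0, 354.6 and 364.8 after gamendazole. All 3 gamendazole arrays and lonidamine 24 h were above every vehicle array, and lonidamine 12 h was below them all. RT1-Bb read 2357.8, 2622.8, 2211.2 and 2854.3 after vehicle. It read 2664.7, 2023.9 and 2631.3 after lonidamine and 2825.0, 2351.1 and 2154.7 after gamendazole. Lonidamine 12 h and gamendazole 24 h were below all vehicle values and no treated array was above them, so at 24 h this chain did not have the higher values seen for RT1-D. The other RT1-Bb probe set was dim, at 6.6 to 57.5 units.

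The 4 probe sets of RT1-Ba disagreed with each other. The second brightest followed the first at 24 h, with 304.5 after lonidamine and 232.7 after gamendazole against 183.4 after vehicle. The third went the other way: vehicle gave 194.4, 268.2, 121.1 and 325.2 units, and lonidamine gave 42.1, 69.6 and 151.5. Gamendazole gave 66.3, 145.6 and 191.7 on it. Averaged over the hours its log2 difference after lonidamine was -1.52, with an adjusted p of 0.148 (limma). The fourth, whose name marks probes shared with other sequences by the maker's convention, ranged from 41 to 202.7 without order by treatment. A statement on RT1-Ba therefore depends on the probe set, and which of the 4 follows the transcript was not tested.

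**Figure D2:**
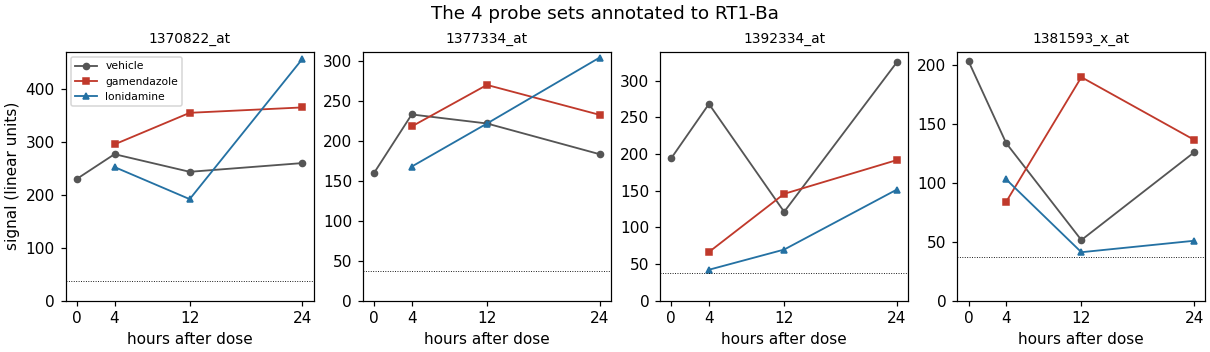
Signal (linear units) of the 4 probe sets annotated to RT1-Ba against hours after the dose, 1 point for each array, joined by treatment; the dotted line is the floor of 37.1 units. The first 2 panels have lonidamine 24 h highest, at 456.6 and 304.5, and the third has vehicle 24 h highest, at 325.2.

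Ciita, the coactivator on which class II transcription depends, was dim. Its brighter probe set read 89.7, 92.1, 28.9 and 43.0 units after vehicle, 101.8, 67.3 and 63.7 after lonidamine and 87.2, 84.2 and 66.3 after gamendazole. The treated values at 12 and 24 h all lay between the lowest and highest vehicle values, and lonidamine 4 h was the only one above them. The other probe set differed from it. It read 56.0, 62.4, 65.7 and 3.5 after vehicle, 49.9, 76.4 and 71.2 after lonidamine and 59.2, 39.2 and 84.5 after gamendazole. Lonidamine 12 h and both 24 h treated arrays were above all its vehicle values. Neither reached the pooled median of 116.2 units on any array, so Ciita was not tested.

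B2m is the small invariant subunit that every classical class I molecule needs to reach the surface. After vehicle it read 5155.5, 4927.1, 3946.6 and 4534.0 units, a mean of 4641 ± 529 (SD, n = 4 arrays). After lonidamine it read 4580.2, 4767.1 and 8174.8, and after gamendazole 6338.6, 6121.8 and 7012.9. The 3 gamendazole arrays all lay above the vehicle range, the 4 h array included, whereas after lonidamine only the 24 h array did. The folds at 24 h were 1.80 for lonidamine and 1.55 for gamendazole. A second probe set, at 542.7 to 1113.8 units, had the same 4 treated arrays above all vehicle arrays.

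Tap1 and Tap2 form the transporter that moves peptides into the endoplasmic reticulum for class I loading. Tap1 stayed at 44.7, 65.4, 65.3 and 67.1 units after vehicle, a mean of 60.6 ± 10.6 (SD, n = 4 arrays). Lonidamine gave 49.3, 163.4 and 436.9, and gamendazole 64.5, 249.9 and 190.9. Both 4 h values lay within the vehicle range and all 4 later values above it. The lonidamine folds were 2.50 at 12 h and 6.51 at 24 h, and those of gamendazole 3.83 and 2.85. The order of the drugs thus turned over between 12 and 24 h. A second Tap1 probe set was dim, at 4.9 to 64.8 units, and did not show these values.

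Tap2 read 16.6, 16.1, 14.0 and 6.3 units after vehicle, all under the floor of 37.1. It read 56.7, 12.3 and 98.8 after lonidamine and 87.0, 10.7 and 39.9 after gamendazole. The 4 h and 24 h treated arrays were above the floor and both 12 h arrays below it, so Tap2 did not follow the hours of Tap1. Its probe set never reached 116.2 units and was not tested.

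A probe set was tested where it reached 116.2 units on 2 or more arrays, which 7 of the 9 genes did. Tap1 passed through its treated arrays alone, since no vehicle array reached that level. It therefore had to be higher on some of them, so its tests below describe these arrays and it is left out of the counts and medians, which cover the other 6. Each drug was first compared with vehicle over 4, 12 and 24 h together, with hour as a factor. In that comparison limma called 0 of 6 members for gamendazole, where it called 4.2% of the 10510 genes tested. For lonidamine it called 0 of 6, against 0.856% of genes, and Tap1 was not called for either drug. At an unadjusted p under 0.05 there was 1 of the 6 for each drug, B2m. Of the 10510 genes, 2330 were under it for gamendazole and 1452 for lonidamine.

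After gamendazole the averaged log2 difference of B2m was 0.54 ± 0.14 (SE), with an adjusted p of 0.0699 by limma. The second B2m probe set gave 0.34, at an adjusted p of 0.295 (limma). Cd74 differed by 0.60 ± 0.27 (adjusted p 0.25) and RT1-Da by 0.64 ± 0.29 (adjusted p 0.252) in the same fit. Tap1 had the largest averaged difference of the 7 tested genes but also the largest error, at 1.14 ± 0.52 after gamendazole and 1.21 ± 0.52 after lonidamine. The median over the 6 members was 0.46 after gamendazole and 0.14 after lonidamine, beside -0.04 and -0.02 over all genes tested. RT1-Bb differed by -0.07 after either drug. Because the fit takes the hours as replicates, a difference that is present at 24 h and absent at 4 h counts there as spread. Without the 4 h arrays limma called B2m, Cd74 and RT1-Da for gamendazole, and Tap1 for both drugs. The share of all genes called was higher there too, at 10.8% for gamendazole and 3.87% for lonidamine. B2m was also called for gamendazole without lonidamine 4 h or lonidamine 24 h, at an adjusted p of 0.0396 and 0.00837, where 4.17% and 4.56% of genes were called.

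The 2 drug arms were also set against each other, at their unequal doses. limma called 0 of 6 members and 0% of all genes. At an unadjusted p under 0.05 there were 0 of the 6, beside 470 of the 10510 genes tested. The gamendazole-minus-lonidamine difference of Cd74 was 0.33, with a 95% interval from -0.27 to 0.93. For RT1-Da the interval ran from -0.17 to 1.11, for B2m from -0.12 to 0.52 and for Tap1 from -1.22 to 1.1. All 4 intervals include 0, and they do not show that the drugs act alike.

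Whether the treated arrays departed further from vehicle at 24 h than at 4 and 12 h was tested with both drugs together. No gene passed in this fit, 0% of 10510, and 0 of 6 members. At an unadjusted p under 0.05 there were 2 of the 6, beside 560 of the 10510 genes. Cd74 had an excess of 1.27 ± 0.30 on the log2 scale (adjusted p 0.686, limma) and RT1-Da of 1.38 ± 0.30 (adjusted p 0.626). Without the 12 h arrays RT1-Da passed, with an excess of 1.81 and an adjusted p of 0.0318, where 0.276% of genes did.

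Each treated array was then set against all 4 vehicle arrays, a fit in which the spread comes from the vehicle arrays alone. The background of this fit was high on the late arrays. It called 11.4% of genes on gamendazole 24 h, 8.18% on lonidamine 24 h and 8.92% on gamendazole 12 h. It called 1.68% on lonidamine 12 h, 1.39% on gamendazole 4 h and 0.0856% on lonidamine 4 h. On gamendazole 24 h it called 3 of the 6 members, RT1-Da, Cd74 and B2m. On lonidamine 24 h it called 3 of the 6, B2m, RT1-Da and RT1-Ba. On the other 4 arrays it called 0 of the 6. The median log2 difference of the 6 was 0.45 on gamendazole 12 h and 0.058 on lonidamine 12 h. It was 0.18 on gamendazole 4 h and -0.066 on lonidamine 4 h. Tap1 was called on both 24 h arrays and on gamendazole 12 h.

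On gamendazole 24 h RT1-Da rose by 1.31 on the log2 scale (95% interval 0.86 to 1.75, adjusted p 0.00713, limma). Cd74 rose by 1.16 (0.58 to 1.74, adjusted p 0.0287) and B2m by 0.60 (0.29 to 0.91, adjusted p 0.0325). RT1-Db1 was 0.57 higher at an adjusted p of 0.054, RT1-Ba 0.54 higher at 0.136, and RT1-Bb differed by -0.21. On lonidamine 24 h Tap1 rose by 2.87 (2.0 to 3.74, adjusted p 0.00519), the largest difference of any member. B2m rose by 0.82 (adjusted p 0.0128), RT1-Da by 0.88 (adjusted p 0.0356) and RT1-Ba by 0.86 (adjusted p 0.0427). Cd74 was 0.78 higher there at an adjusted p of 0.119, and RT1-Db1 0.36 higher at 0.219. Tap1 rose by 1.67 on gamendazole 24 h (adjusted p 0.0333) and by 2.06 on gamendazole 12 h (adjusted p 0.0184). The plot of these differences shows every 24 h interval of Cd74, RT1-Da, RT1-Db1, RT1-Ba, B2m and Tap1 above 0 and those of RT1-Bb across it.

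**Figure D3:**
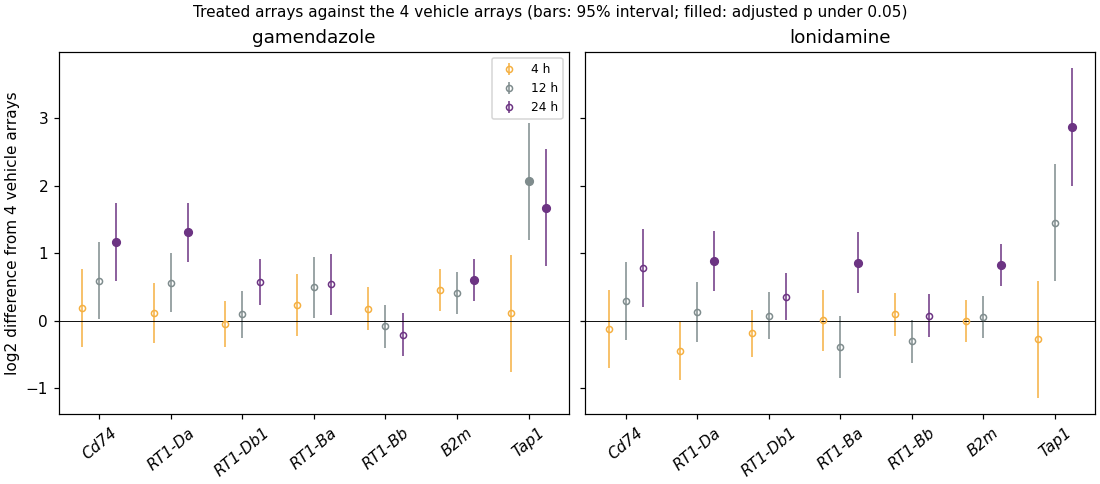
Log2 difference of each treated array from the 4 vehicle arrays for the brightest probe set of each of the 7 tested members. Gamendazole is on the left and lonidamine on the right. Bars are 95% intervals from limma and filled points have an adjusted p under 0.05. On both panels the 24 h points of RT1-Da, B2m and Tap1 are filled, from 0.60 for B2m after gamendazole to 2.87 for Tap1 after lonidamine.

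Most of these calls leaned on single vehicle arrays. Of the gamendazole 24 h calls, RT1-Da was kept whichever vehicle array was left out. Cd74 was lost without vehicle 0 h, 12 h or 24 h (adjusted p 0.0641, 0.0892 and 0.0531, limma). B2m was lost without vehicle 4 h (0.0638) or 24 h (0.081), and Tap1 without vehicle 4 h, 12 h or 24 h (0.0628, 0.071 and 0.0598). On lonidamine 24 h Tap1 and B2m were kept in all 4 cases. RT1-Ba was lost in all 4 (0.0726 without vehicle 0 h or 4 h, 0.105 without 12 h, 0.0842 without 24 h). RT1-Da was lost without vehicle 0 h, 12 h or 24 h (0.0779, 0.111 and 0.0651), and Cd74 was gained without vehicle 4 h, at 0.0396. The Tap1 call on gamendazole 12 h was lost without vehicle 12 h, at 0.0504.

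By fold alone, with no test, a gene was counted where it reached 2-fold and the brighter array read at least 116.2 units. Cd74 and RT1-Da stood at least 2-fold above vehicle 24 h after each drug, against 4.21% of genes after lonidamine and 4.9% after gamendazole. At 12 h no member but Tap1 did so, against 2.56% and 4.58% of genes. Tap1 did so after each drug at 12 and 24 h, but was bright enough on treated arrays alone. It is therefore not set against these shares. At 4 h 0 members were counted by this rule, against 0.992% of genes after lonidamine and 1.9% after gamendazole. By that rule 0 members differed 2-fold between any of the 6 pairs of vehicle arrays, where 1.53% to 1.90% of genes did in either direction. Ciita and Tap2 are too dim to be counted. Against the floor, Tap2 was at least 2.35-fold higher on gamendazole 4 h and 2.66-fold on lonidamine 24 h. Ciita was at least 2.27-fold higher on gamendazole 12 h, but its vehicle arrays also differed by over 2-fold, from 28.9 to 92.1 units. Its other probe set was at least 2.28-fold higher on gamendazole 24 h, where vehicle 24 h lay under the floor. The treated arrays of both drugs at 24 h lay above all 4 vehicle arrays for 5 of the 6 members, all but RT1-Bb, and for 19.2% of all genes tested. The comparisons of both drugs share their vehicle arrays.

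The other genes of the class II route include the enzymes and chaperones that cut antigen and load peptide. Their list also holds genes with other roles, such as Cd9, Cd82, Marchf8 and Ap1s2. Of 13 tested genes on this list, limma called 2 over the hours after gamendazole, beside 4.2% of all genes tested. These were Ctsl (1.28, adjusted p 0.00345) and Lgmn (1.18, adjusted p 0.0151), the lysosomal proteases cathepsin L and legumain, which trim antigen and the invariant chain. Ctsl also rose after lonidamine, by 0.79 (adjusted p 0.0447). The list median was 0.49 after gamendazole and 0.31 after lonidamine. Cd9 read 116.7 to 186.9 units after vehicle, 430.7 on lonidamine 24 h and 502.3 on gamendazole 24 h. It is in both 24 h counts that follow. On the single 24 h arrays 7 of 13 rose after gamendazole and 5 of 13 after lonidamine, beside the backgrounds of 11.4% and 8.18%.

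RT1-DMa and RT1-DMb, the chains of the DM chaperone that exchanges the invariant chain remnant for peptide, were both called on the single gamendazole 24 h array. Neither was called over the hours or on lonidamine 24 h. RT1-DMa read 141.2, 137.2, 118.3 and 119.0 units after vehicle. It read 150.7, 170.6 and 226.1 after lonidamine and 140.5, 208.9 and 354.1 after gamendazole. Every treated array but gamendazole 4 h was above the vehicle arrays, and on gamendazole 24 h the log2 difference was 1.46 (adjusted p 0.0142, limma). The difference between the drugs was not called for any gene. Ifi30, the thiol reductase that unfolds antigen in the endosome, rose by 0.96 on gamendazole 24 h and 0.92 on lonidamine 24 h (adjusted p 0.0184 and 0.025). Lgmn was 859 to 1013 units on the vehicle arrays and 3073 and 2600 on the gamendazole and lonidamine 24 h arrays. Ctss, the cathepsin best known for cutting the invariant chain, read 430.3 to 596.7 units after vehicle. At 24 h it read 519.3 after lonidamine and 547.2 after gamendazole, inside that range.

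The class I route has the immunoproteasome, which cuts cytosolic protein, its activator PA28, and the proteins that load peptide. Over the hours limma called 1 of 24 tested genes after each drug, and both were heavy chains that are taken up below. The shares of all genes called were 4.2% after gamendazole and 0.856% after lonidamine. On the single 24 h arrays 9 of 24 rose after gamendazole and 7 of 24 after lonidamine, and 0 fell. Called on each of these arrays, whose comparisons share the vehicle arrays, were Psmb8 and Psmb9 of the immunoproteasome and Psme1 and Psme2 of PA28. So were Tapbp, which bridges class I to the transporter, and Erap1, which trims peptides. These calls stand beside the high background of the single-array fit. Psmb9 read 416.7, 333.6, 318.3 and 358.8 units after vehicle. It read 314.0, 366.2 and 907.3 after lonidamine and 452.2, 453.8 and 615.9 after gamendazole. Its log2 difference was 1.35 on lonidamine 24 h (adjusted p 0.00678) and 0.80 on gamendazole 24 h (adjusted p 0.0405, limma).

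Psme2 rose by 1.31 on lonidamine 24 h and 1.28 on gamendazole 24 h (adjusted p 0.00474 for each). Tapbp read 318.5 to 372.7 units after vehicle. It rose by 1.16 on lonidamine 24 h (adjusted p 0.00675) and by 0.84 on gamendazole 24 h (adjusted p 0.0193). The constitutive proteasome genes Psmb5 and Psmb7 were not called on either array. Of the general chaperones of the endoplasmic reticulum, Canx was called on gamendazole 24 h, at 3815.9 units against 3054.8 to 3216.7 after vehicle (adjusted p 0.0442, limma), and Calr and Pdia3 were not called on either array. Sec61a1, of the channel through which proteins enter that compartment, was also called there, by 0.32 (adjusted p 0.0477). Calr read 6542.1 to 7004.9 units after vehicle, and 7074.4 after lonidamine and 6860.9 after gamendazole at 24 h.

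**Figure D4:**
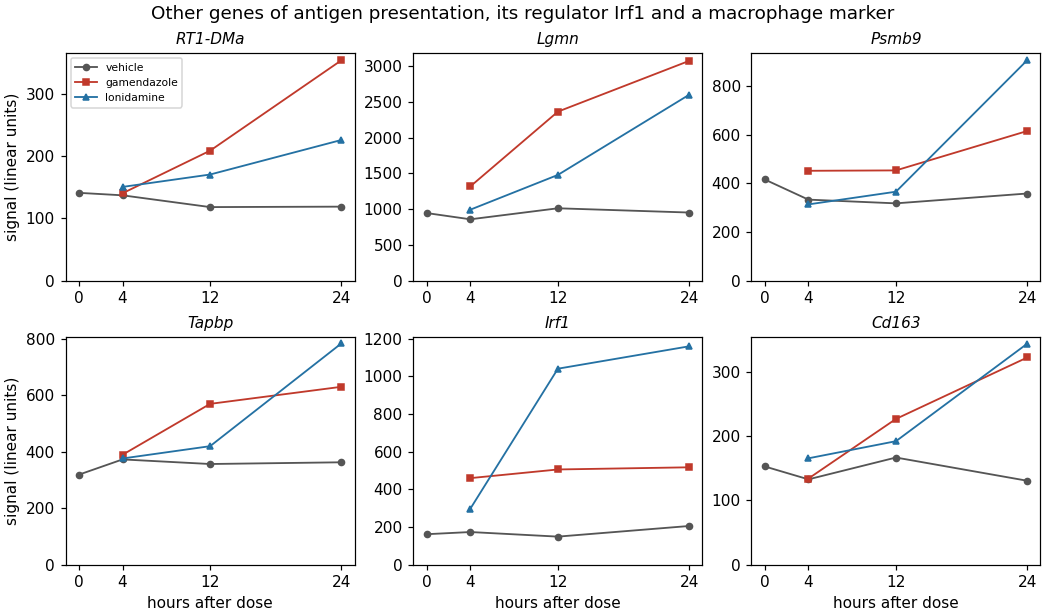
Signal (linear units) of RT1-DMa and Lgmn of the class II route, Psmb9 and Tapbp of the class I route, the regulator Irf1 and the macrophage marker Cd163 against hours after the dose, 1 point for each array, joined by treatment. Irf1 is above the highest vehicle array of 205.2 on all 6 treated arrays, while Psmb9 departs mainly at 24 h, where it read 907.3 after lonidamine and 615.9 after gamendazole.

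Interferon gamma acts through its receptor, the kinases Jak1 and Jak2 and factors such as Irf1, and in human and mouse cells Irf1 acts on Tap1, Psmb9 and Ciita. Of 18 tested genes for this signal and the class II promoter factors, limma called 4 over the hours after gamendazole: Irf1 (1.5, adjusted p 0.0435), Jak2 (1.42), Ifngr2 (1.24) and Jak1 (0.81). After lonidamine it called Irf1 alone, at 2.03 (adjusted p 0.0379, limma). The shares of all genes called were 4.2% after gamendazole and 0.856% after lonidamine. The list medians were 0.14 and 0.30. Irf1 read 161.5, 173.1, 148.7 and 205.2 units after vehicle. It read 297.1, 1040.9 and 1159.9 after lonidamine and 459.5, 505.5 and 517.0 after gamendazole, above every vehicle array from 4 h on. The 4 h fold was 1.72 after lonidamine and 2.65 after gamendazole, at an hour when Tap1, Cd74 and RT1-Da were not above their vehicle arrays. B2m and RT1-Ba on gamendazole 4 h were above all of theirs, at 6338.6 and 295.0 units.

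Ifng itself, at 15.7 to 101.2 units over the 10 arrays, was under the level for testing, and so was Nlrc5, the coactivator of class I genes, at 23.8 to 79.2. Rfx5, which binds the class II promoter with Ciita, read 362.4 to 397.5 units after vehicle and 318.0 to 401.9 after the drugs. Its averaged log2 difference was 0.0042 after gamendazole and 0.028 after lonidamine. Of 23 tested interferon target genes, 4 rose over the hours after gamendazole and 3 after lonidamine, beside 4.2% and 0.856% of all genes called. Gbp2, an interferon-induced GTPase, rose by 3.34 after gamendazole (adjusted p 0.0271). Cxcl11, a chemokine that attracts T cells, rose by 3.49 after gamendazole and 3.53 after lonidamine (adjusted p 0.0168 and 0.0392, limma). Cxcl11 reached the level for testing through treated arrays alone, and so did Isg15, so their tests only describe these arrays. Both are in the 24 h counts that follow, which stand beside the high background of the single-array fit. On the 24 h arrays 6 of the 23 rose after gamendazole and 12 after lonidamine, Psmb9 among both.

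Markers of the cells that could carry class II moved with it in part. Of 20 tested macrophage markers, limma called 2 over the hours after gamendazole, Clec10a (2.0) and C1qa (0.87), and 0 after lonidamine. The shares of all genes called were 4.2% and 0.856%. After lonidamine 8 of the 20 had an unadjusted p under 0.05, beside 1452 of the 10510 genes tested. The list medians were 0.49 and 0.33. The 24 h counts that follow stand beside the high background of the single-array fit. They include Fcgr2b, which reached the level for testing through treated arrays alone. On the 24 h arrays 5 of 20 rose after gamendazole and 6 after lonidamine. The summed signal of the 21 macrophage genes on the array was 14029 to 14486 units after vehicle. It was 17288 on gamendazole 24 h and 17977 on lonidamine 24 h, or 1.22-fold and 1.27-fold over vehicle 24 h. This sum is dominated by Aif1, which read 7723.3 to 8340.3 units after vehicle and 7104.8 to 7818.9 after the drugs. Aif1 was below every vehicle array on 5 treated arrays, both 24 h arrays included. The higher 24 h sums thus came from the other genes of the list.

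Among the defining macrophage markers, Cd163 read 152.6, 132.5, 166.4 and 130.3 units after vehicle and 343.4 and 321.9 on lonidamine and gamendazole 24 h. It rose by 1.25 and 1.15 there (adjusted p 0.0296 and 0.0317, limma). Csf1r, the receptor on which macrophages depend, read 157.1 to 209.1 units after vehicle, 180.0 on lonidamine 24 h and 318.1 on gamendazole 24 h. Its difference on gamendazole 24 h was 0.75 at an adjusted p of 0.116. Cd68 was 0.86 higher there at 0.206. Adgre1 read 822.9 to 1000.5 units after vehicle, 818.7 on gamendazole 24 h, below that range, and 1093.1 on lonidamine 24 h, above it. Ptprc, on all white blood cells, read 28.5 to 96.7 units after vehicle and 146.7 and 147.7 on the 24 h arrays.

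Several defining markers of other class II cells were dim. The B cell gene Cd79b read 6.1 to 9.5 units after vehicle and 5.0 to 21.9 after the drugs. The dendritic cell gene Itgax read 4.7 to 33.5 and 8.0 to 116.5. Ms4a1, another B cell gene, was bright enough to test and read 134.7 to 221.0 after vehicle and 132.3 to 169.5 after the drugs. Blnk, the other tested gene of the B cell list, went the other way and is taken up at the end. It read 95 to 141.6 units after vehicle, 579.4 on lonidamine 24 h and 873.7 on gamendazole 24 h. The summed signal of that list was 2.18-fold and 3.03-fold of vehicle 24 h on those arrays. The T cell genes Cd3e and Cd3d did not exceed 79.7 units on any array. Of the dendritic cell list 0 of 3 tested genes were called by limma on either 24 h array, with 1 at an unadjusted p under 0.05 on lonidamine 24 h. Of the T and NK cell list 0 of 2 were called, and 0 had an unadjusted p under 0.05. Germ cell markers, the bulk of the tissue, summed to 252023 units on gamendazole 24 h and 256563 on lonidamine 24 h, or 0.869 and 0.884 of vehicle 24 h. The part of cell numbers in the class II values was not tested.

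Of the class I heavy chain genes, RT1-CE5 and RT1-CE16 were high on the 4 treated arrays of 4 and 12 h, but also on the 0 h vehicle array. The brightest RT1-CE5 probe set read 2286.0, 747.7, 775.6 and 768.1 units after vehicle at 0, 4, 12 and 24 h. It read 3838.9, 4839.7 and 1290.0 after lonidamine and 2592.8, 1770.6 and 740.7 after gamendazole. The 0 h vehicle array was thus far above the other vehicle arrays, and gamendazole 24 h was below them all. RT1-CE16 had the same arrays high, at 314.5 on vehicle 0 h and 321.1 to 563.0 on the treated arrays of 4 and 12 h, and 12.9 to 43.4 on the other 5. RT1-T24-4 went the opposite way on vehicle 0 h and the early lonidamine arrays, with 828.1, 317.7 and 412.2 against 1657.6 to 1913.0 on the other vehicle arrays.

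limma called RT1-CE5 over the hours after lonidamine, at 1.92 with an adjusted p of 0.0355, but that fit leaves out the high 0 h vehicle array. With that array added and the hybridisation run in place of the hour, the difference was 1.64 at an adjusted p of 0.0968. The call was also lost without lonidamine 4 h, 12 h or 24 h (adjusted p 0.0695, 0.204 and 0.0636, limma) and without gamendazole 12 h (0.0669) or 24 h (0.05001). RT1-CE12, called after gamendazole at 0.45 (adjusted p 0.0259), did not share that pattern. It read 2189.4 to 2559.2 units after vehicle, 2633.5 to 3107.6 after lonidamine and 3035.1 to 3396.8 after gamendazole, with all 6 treated arrays above the vehicle arrays. Its call was lost without lonidamine 12 h (0.0503), gamendazole 12 h (0.066) or gamendazole 24 h (0.0849). The probe sets of RT1-CE12, RT1-CE16 and RT1-T24-4 are marked by name as sharing probes with other sequences, as is the fourth of RT1-Ba. The brightest probe sets of RT1-Db1 and B2m carry another mark of that convention, for probes shared between transcripts. RT1 genes are known to be highly variable between rats and Long-Evans animals are outbred. Whether the arrays differ in RT1 alleles was not tested. Cd74 and B2m lie outside the RT1 region, while RT1-D, RT1-B, RT1-DM, Tap1, Tap2, Psmb8 and Psmb9 lie inside it.

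**Figure D5:**
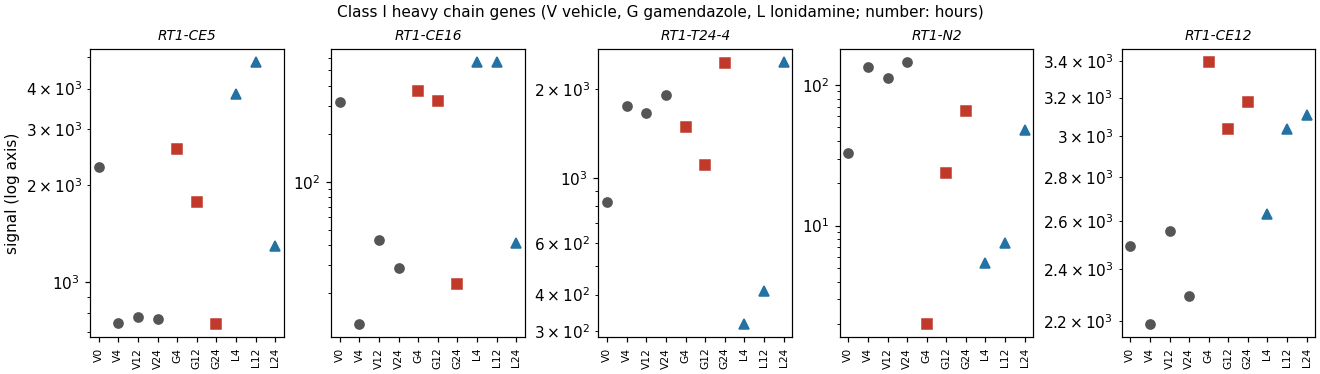
Signal (log axis) of 5 class I heavy chain genes on the 10 arrays, where V, G and L mark vehicle, gamendazole and lonidamine and the number is the hour. RT1-CE5 and RT1-CE16 are high on vehicle 0 h and on the treated arrays of 4 and 12 h, whereas RT1-CE12 has all 6 treated arrays above the highest vehicle array of 2559.2.

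Over the 10 arrays the gene whose log2 signal was most like that of Cd74 was RT1-Da, with a Pearson r of 0.97. Coro1a, an actin-binding protein of white blood cells, followed at 0.97, then Plxdc2 at 0.96, Ccdc6 at 0.95 and Pttg1ip at 0.94. RT1-Db1 came 35th in that order, Tap1 506th, B2m 591st and RT1-Ba 882nd, while RT1-Bb came 7095th with a negative r of -0.36. The genes most like Tap1 were Cxcl16 and Piezo1 at 0.97, and Dnajc12, Tgm2 and Il1r2 at 0.96. Cd74 was 706th in the order for Tap1, at 0.78. These are descriptions over arrays that share treatments, hours and scaling. Only tested genes were ordered. Tap1, Piezo1, Dnajc12, Il1r2, Coro1a and Plxdc2 reached the level for testing through treated arrays alone. Their likeness is therefore in part built in by that filter.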

How the data were processed

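The series holds 10 Affymetrix rat arrays of whole-testis RNA, 1 for each treatment and hour. The authors deposited 1 linear intensity for each probe set, computed in GCOS 1.1 per the submitters' processing notes. By the values, every array had been scaled to a 2% trimmed mean of 500.2, which removes differences in total RNA.

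From these, 57 control probe sets were left out, intensities below 37.1 (the 25th percentile of all arrays together) were raised to it before log2. Names came from the platform annotation: 20826 probe sets had 1 symbol, 436 several (none naming a member) and 9780 none. Tested were the 17549 probe sets that reached the median of all arrays together, 116.2, on at least 2 of them, in limma 3.58.1 (R 4.3.3) with a variance trend and Benjamini-Hochberg adjustment over all of them at 0.05. The script was tested on simulated data. The averaged fit has treatment and hour as factors on 9 arrays (4 residual degrees of freedom). The single-array fit sets each treated array against the 4 vehicle arrays (3 residual degrees of freedom, all from vehicle), and assumes that treated arrays vary as vehicle arrays do. P-values therefore measure the spread between hours or vehicle arrays, which may be technical, and the number of arrays limits the precision. Hybridisation runs were inferred from the instrument records. Per gene list, the named genes were up to 6 with the largest called averaged difference for each drug, up to 3 with the lowest p where few were called, fixed defining markers and regulators, and the 5 most like Cd74 and Tap1. Ctss, Calr, Pdia3, Canx, Sec61a1, Psmb5, Psmb7, Ifi30, RT1-DMa, RT1-DMb, Psme2, Erap1, Adgre1, Aif1, Cd3d, RT1-CE16 and RT1-T24-4 were named after their values were seen. So were Cd82, Marchf8, Ap1s2 and Isg15. The members and lists were chosen with earlier results of these data known. Alternatives were other floors, filters, scalings, variance models, probe set rules and hybridisation runs, and arrays left out.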

Additional observations from a re-analysis of the deposited data

Results flagged for a closer look

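For Cd74, RT1-Da, RT1-Db1, Tap1 and RT1-Bb both treated arrays lay on one side of the same-hour vehicle array at 4 h. At 24 h both lay on the other side. The share of all genes that did so was not counted, so this only describes these genes. Tap1 reached the level for testing through treated arrays alone. Some 4 h values lay close to 0, such as Tap1 after gamendazole and RT1-Bb after lonidamine. The values are log2 differences, lonidamine before gamendazole, with 1 array a side, and the difference between these hours was not tested by itself. Cd74 gave -0.55 and -0.24 at 4 h and 1.09 and 1.47 at 24 h. RT1-Da gave -0.76 and -0.20 at 4 h and 1.11 and 1.54 at 24 h. RT1-Db1 gave -0.31 and -0.17, then 0.39 and 0.60. Tap1 gave -0.41 and -0.02, then 2.70 and 1.51. RT1-Bb went the opposite way, from 0.02 and 0.11 to -0.12 and -0.41. Vehicle 4 h was the highest of the 4 vehicle arrays for Cd74, RT1-Da and RT1-Db1, at 942.6, 1077.5 and 507.5 units. The related test of 24 h against 4 and 12 h together, with limma, gave an adjusted p of 0.686 for Cd74, 0.626 for RT1-Da and 0.947 for RT1-Db1, Tap1 and RT1-Bb. As inferred from the instrument records, gamendazole 4 h was hybridised in another run than vehicle 4 h; the part of the run was not tested.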

How the results depend on the processing

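No paired analysis was possible because each group has 1 array and all share replicate number 1, so no number pairs arrays; hour is a factor in the averaged fit. Counts here are over 7 members, Tap1 included. Tap1 reached the level for testing through treated arrays alone, so its part in these counts only describes those arrays. It is 1 of the 4 members called for gamendazole without the 4 h arrays. Over the hours, leaving out an hour or a treated array gave 0 to 4 called members for gamendazole and 0 to 1 for lonidamine. It gave 0 to 1 for the 24 h excess, and other settings left these at 0. Over all genes tested, the gamendazole calls numbered 441 in the main fit and 1131 without the 4 h arrays. They numbered 19 with no variance trend and 0 with no filter or without the 12 h arrays. The member counts thus stand beside totals that move with the setting. The single-array counts that follow are given without such totals and are not read as a result about the members. In the single-array fit with no filter on dim probe sets, 1 member, Tap2, was called on lonidamine 4 h and 1 on gamendazole 4 h. Tap2 lay at the floor on all vehicle arrays, so its spread is borrowed. Lonidamine 12 h had 1 call with the floor at the 50th percentile. Gamendazole 12 h had 0 without a filter or with it at the 75th percentile, where Tap1 is not among the genes tested, 2 under cyclic loess and 0 to 1 without 1 vehicle array. Lonidamine 24 h had 2 under the higher floor, no filter, the higher filter, no variance trend and the mean of all probe sets, and 2 to 4 without 1 vehicle array. Gamendazole 24 h had 1 with no filter or no variance trend, 2 with the mean of all probe sets, and 1 to 3 without 1 vehicle array. Signs turned only for values that were not called, except RT1-Ba on lonidamine 24 h, which was -0.0467 as the mean of its probe sets. With that mean, lonidamine averages were -0.50 for RT1-Ba, -0.11 for RT1-Db1 and 0.0442 for RT1-Bb, RT1-Db1 on lonidamine 24 h was -0.0633, and RT1-Bb after gamendazole was 0.0704. RT1-Bb after gamendazole was 0.0153 with run in place of hour and vehicle 0 h added, and RT1-Db1 after lonidamine was -0.0009 under quantile normalization. Leaving out an hour or a treated array, RT1-Bb after gamendazole ran from -0.16 to 0.0978. After lonidamine Cd74 ran from -0.14 to 0.68, RT1-Ba from -0.24 to 0.38, RT1-Da from -0.31 to 0.63 and RT1-Db1 from -0.0792 to 0.27, each negative without the 24 h arrays. Where no value above bears on it, the cause was not tested. Of 573 alternatives for single genes, 485 kept direction and side of the threshold. The number of arrays limits all calls, and Ciita and Tap2 are too dim to test.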

Other observations

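Icam1, which holds T cells to the presenting cell, was the co-stimulation gene called over the hours after each drug, by 2.14 after gamendazole and 2.25 after lonidamine (adjusted p 0.0148 and 0.0313, limma). It read 80.7, 99.5, 96.8 and 157.1 units after vehicle, 178.6, 778.7 and 1179.1 after lonidamine and 288.8, 645.9 and 691.3 after gamendazole, with all 6 treated arrays above the vehicle arrays. Of the 11 genes of that list 7 were measured here and 2 reached the level for testing.

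Blnk, an adaptor of B cell receptor signals that macrophages also use, was chosen for mention after its values were seen. It read 95 to 141.6 units after vehicle, and 579.4 on lonidamine 24 h and 873.7 on gamendazole 24 h. It rose by 2.35 and 2.95 there (adjusted p 0.00423 and 0.00166, limma), while of the B cell genes Ms4a1 was not called and Cd79b was too dim to test. Lcn2, on the neutrophil list and also made by other cells under inflammation, read 232.5, 858.8, 244.1 and 278.9 units after vehicle and 4428.7 on lonidamine 24 h, where it rose by 3.70 (adjusted p 0.0175). The neutrophil gene S100a9 read 53.7, 1.0, 43.8 and 13.0 units after vehicle and 35.9, 143.4 and 123.0 after lonidamine. It read 77.6, 370.9 and 179.1 after gamendazole, with all 3 arrays above the vehicle arrays. It was called over the hours after gamendazole, by 2.14 (adjusted p 0.031, limma), and on gamendazole 12 h and 24 h, but it reached the level for testing through treated arrays alone. S100a8 read 2.1 to 29.2 units after vehicle and 34.3 and 74.5 on lonidamine and gamendazole 24 h.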
